A study of Mus musculus with 2 samples.

Results

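Fc receptors are proteins that bind the constant part of antibodies, and the Fc receptor-like genes encode their relatives. DNase I hypersensitive sites (DHS) were examined at 10 such genes, taken by name out of 22350 protein-coding genes on chromosomes 1 to 19 and X. The group holds 4 genes known from B cells (Fcer2a, Fcrl1, Fcrl5 and Fcrla), 4 known from myeloid cells (Fcgr1, Fcgr3, Fcgr4 and Fcer1g), and the pair Pigr and Fcamr. Each gene was given a window of its body plus 50 kb on either side in the mm9 assembly with GENCODE M1 gene models. A DHS was counted in a window when it overlapped it by at least 1 bp, and 104 of the 47542 DHS in the deposited list did so. Of these, 80 lay in the window of 1 member and 24 in those of 2 members, so the members' counts are not independent.

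The cells were B cells of the spleen of C57/Bl6 mice, 8 weeks old, with both Trp53 alleles intact (Trp53+/+) and under mock treatment, that is, without the irradiation used elsewhere in the study. They were enriched on magnetic beads for B220, dying cells were removed on a Ficoll gradient, and nuclei were digested with DNase I. The series holds 1 DNaseI library, whose peak list was used here, and 1 input library, which was not analysed here. Whether cells of several mice were pooled for this library is not given in the sources used here. With 1 library there is no second condition and no replicate, so every comparison is descriptive, without a p-value, and every interval covers counting error only. The depth is unknown, and a gene without a DHS is one at which none was called.

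Fc receptors couple antibody to the cell that carries it. On myeloid cells, activating receptors for IgG signal through the shared gamma chain encoded by Fcer1g, whereas B cells carry the inhibitory receptor Fcgr2b and the IgE receptor CD23. The Fc receptor-like proteins are expressed mainly in the B lineage, and Pigr carries polymeric antibody across epithelia. DNase I cuts regulatory DNA that is free of nucleosomes, so that active promoters and enhancers appear as DHS in the cells that use them.

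The windows of B cell and myeloid members held DHS at a like density, whereas DHS over the genes themselves were counted mainly at the B cell members. A DHS covered a transcription start site (TSS) in 4 of 4 B cell members, 0 of 4 myeloid members and 0 of 2 for Pigr and Fcamr, against 46.6% of all protein-coding genes. Among the 13740 protein-coding genes without a CpG-rich promoter, the kind of promoter that 9 of the 10 members have, the share was 29.4%. The promoter was taken as the 5 kb before and the 2 kb after any TSS. It held a DHS in 4 of 4 B cell members, 2 of 4 myeloid members and 1 of 2 for the pair, against 57.0% of all protein-coding genes and 39.2% of those without a CpG-rich promoter. Gene bodies held a DHS in 4 of 4, 1 of 4 and 1 of 2 genes, against 57.9%. A DHS over a TSS also lies in the promoter and the gene body. The 4 of 4 B cell members in these counts therefore follow from the count over TSSs. With 4 genes in each class these shares are a description of the genes and carry no test.

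The 48 DHS in 403896 bp of B cell windows came to 119 DHS per Mb (95% interval 87.6 to 158). The 44 DHS in 362158 bp of myeloid windows came to 121 per Mb (88.3 to 163). The ratio of B cell to myeloid density was 0.978 (0.636 to 1.51), so no difference between the windows was detectable. In gene bodies the B cell members held 8 DHS in 60145 bp, or 133 per Mb, and the myeloid members 2 in 40751 bp, or 49.1 per Mb. The 8 include the DHS over a TSS of each B cell member, so the body density is not separate from the count over TSSs. The ratio of the body densities was 2.71, with an interval from 0.541 to 26.2 that includes equal densities. Per bp, DHS covered 13.5% of the bodies of the B cell members and 1.77% of those of the myeloid members, while over the windows the covered share in B cell members was 0.959 times that in myeloid members.

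All 10 members had at least 8 DHS in the window, where the median protein-coding gene had 5 (quartiles 1 and 9) and 77.0% of genes had any. The counts ran from 10 to 16 in the myeloid members, from 12 to 17 in the B cell members and were 8 and 14 for Fcamr and Pigr, so the classes overlapped. The classes also shared their windows with other genes to unequal extents. In myeloid windows 21 of 44 DHS (47.7%) lay in the promoter of a gene outside the group, in B cell windows 13 of 48 (27.1%), and in those of Pigr and Fcamr 8 of 14. Scores, the value the authors' peak caller gave each DHS, were alike in the windows, with medians of 38.4 in B cell and 39.1 in myeloid windows and 32.65 over the whole list.

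**Figure D1:**
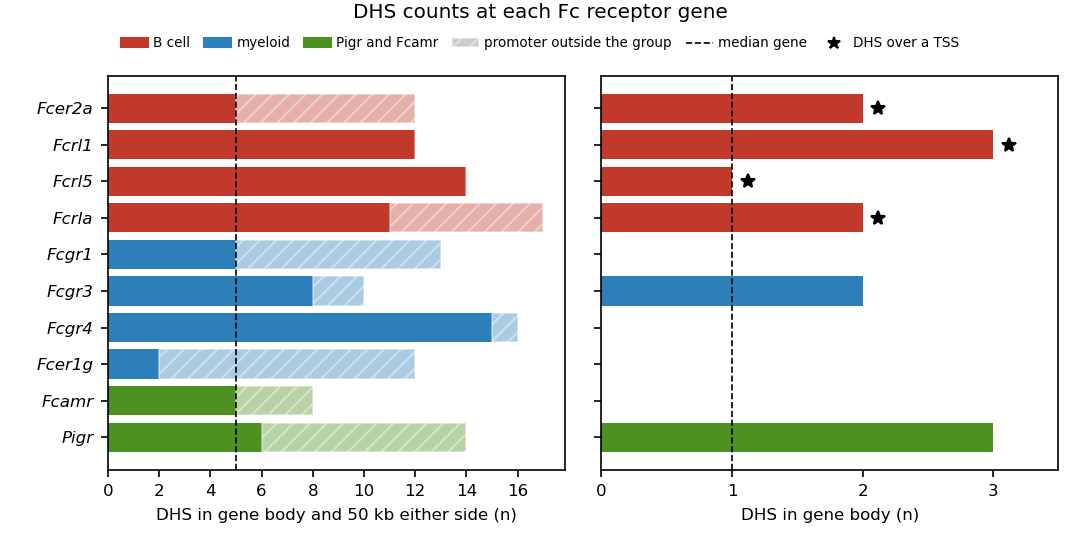
DHS in the gene body and 50 kb either side (left) and in the gene body alone (right) of each member, coloured by class; the hatched part lies in the promoter of a gene outside the group, dashed lines mark the median protein-coding gene (5 and 1) and stars mark genes with a DHS over a TSS. The left bars of the 3 classes overlap, whereas the 4 B cell genes are the starred ones and Fcgr1, Fcgr4, Fcer1g and Fcamr have no DHS in the body.

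Fcrl1, which encodes a B cell surface protein that promotes signalling through the B cell receptor, had the highest-scoring promoter DHS of the group. The gene lies at chr3:87180309-87196055 on the plus strand and all 3 of its annotated transcripts start at 1 TSS. A DHS of score 237 at chr3:87179760-87182372 covered it, a score above that of 97.9% of the DHS in the list. A further 2 DHS lay in introns, with scores of 22.5 at chr3:87183655-87184450 and 24.97 at chr3:87185548-87187171. The first of them is less certain, since 49.5% of its 31-base words recur in the genome. The 9 DHS of the flanks overlapped no promoter of a gene outside the group, although 1 of them covered the TSS of Fcrl5, and the highest of them, of score 68.8, lay 24769 bp from the 5′ end on the downstream side.

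The sequences below show what the DHS of Fcrl1 cover. The first is the 250 bases upstream of the TSS (chr3:87180059-87180308), which lie inside the DHS of score 237 and end at the base before the TSS. The capitals mark a match to the PU.1 word GAGGAAGT, here on the opposite strand. The second is the central 300 bases of the same DHS (chr3:87180917-87181216), all intronic and without a match to any of the 5 words searched. The third is the central 300 bases of the intronic DHS of score 24.97 (chr3:87186210-87186509), the highest-scoring DHS in a B cell member's body that overlaps no promoter. Its capitals mark a match to the octamer ATGCAAAT, the element bound by the Oct factors of B cells, and one to the ETS-IRF composite word GGAANNGAA on the opposite strand. All 3 are given on the plus strand.
Fcrl1 upstream: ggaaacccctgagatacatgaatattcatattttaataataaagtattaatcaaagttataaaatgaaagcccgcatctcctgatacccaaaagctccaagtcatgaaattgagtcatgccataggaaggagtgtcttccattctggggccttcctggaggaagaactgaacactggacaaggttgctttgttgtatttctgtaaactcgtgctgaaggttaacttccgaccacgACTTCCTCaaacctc
Fcrl1 promoter DHS: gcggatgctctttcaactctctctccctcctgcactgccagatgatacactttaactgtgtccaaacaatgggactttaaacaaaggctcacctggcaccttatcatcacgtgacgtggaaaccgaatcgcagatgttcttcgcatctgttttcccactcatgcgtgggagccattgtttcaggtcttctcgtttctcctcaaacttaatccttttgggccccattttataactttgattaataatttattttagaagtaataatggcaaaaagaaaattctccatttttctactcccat
Fcrl1 intron DHS: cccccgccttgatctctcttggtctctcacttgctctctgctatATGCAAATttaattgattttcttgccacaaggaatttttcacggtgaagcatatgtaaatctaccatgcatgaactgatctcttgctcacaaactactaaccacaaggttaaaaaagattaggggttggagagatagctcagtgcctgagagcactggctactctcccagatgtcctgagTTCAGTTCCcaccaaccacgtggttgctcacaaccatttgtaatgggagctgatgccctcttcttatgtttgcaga

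Fcrl5, a B cell receptor-like protein with activating and inhibitory signalling motifs, lies on the same strand at chr3:87239807-87261758. A narrow DHS of score 27.2 at chr3:87239619-87240257 covered the TSS of both its transcripts, a score below the median of the list. It was the only DHS of the 21952 bp gene body. All 13 flank DHS lay outside the promoters of other genes, the highest of them, of score 99.95, at 71278 bp from the 5′ end on the downstream side. Fcrl1 and Fcrl5 shared 7 DHS with scores from 9.03 to 68.8, of which 6 lay between the genes and the seventh was the TSS DHS of Fcrl5. Fcrl1 and Fcrl5 were the members whose windows held no DHS in the promoter of a gene outside the group.

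Fcrla, which encodes an intracellular Fc receptor-like protein of B cells, lies on the minus strand at chr1:172847707-172857714. A DHS of score 133 at chr1:172857062-172859700 covered the TSSs of 5 of its 6 transcripts, and 90.8% of the DHS in the list scored lower. A DHS of score 32.6 at chr1:172854464-172855188 lay in an intron and one of score 24.9 at chr1:172862431-172862804 upstream of the gene, both within the promoter region. The first 2 of these also overlapped the promoter region of Gm2962, a pseudogene inside Fcrla, and the DHS cannot be assigned to either. Fcrla had the most DHS of all members, 17. The highest-scoring DHS of the flanks, of score 184, lay 25812 bp from the 5′ end on the downstream side and in no promoter.

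Fcer2a, the gene of CD23, lies on the minus strand at chr8:3681737-3694174 and has 5 transcripts. A DHS of score 72.1 at chr8:3692862-3694729 covered the most upstream TSS, from which 1 transcript starts. The other 4 transcripts start in the interior, where the nearest DHS lay 2035 or 2036 bp away. A second DHS of the body, of score 19.3 at chr8:3687824-3688309, lay in an intron. In the flanks 7 of 10 DHS were in promoters of other genes, among them the highest, of score 178, shared by 2400009B08Rik and Trappc5. The 4 B cell members thus all had a DHS over a TSS, but its score ran from 27.2 at Fcrl5 to 237 at Fcrl1, on both sides of the median of 81.4 for the highest promoter DHS of genes without a CpG-rich promoter.

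**Figure D2:**
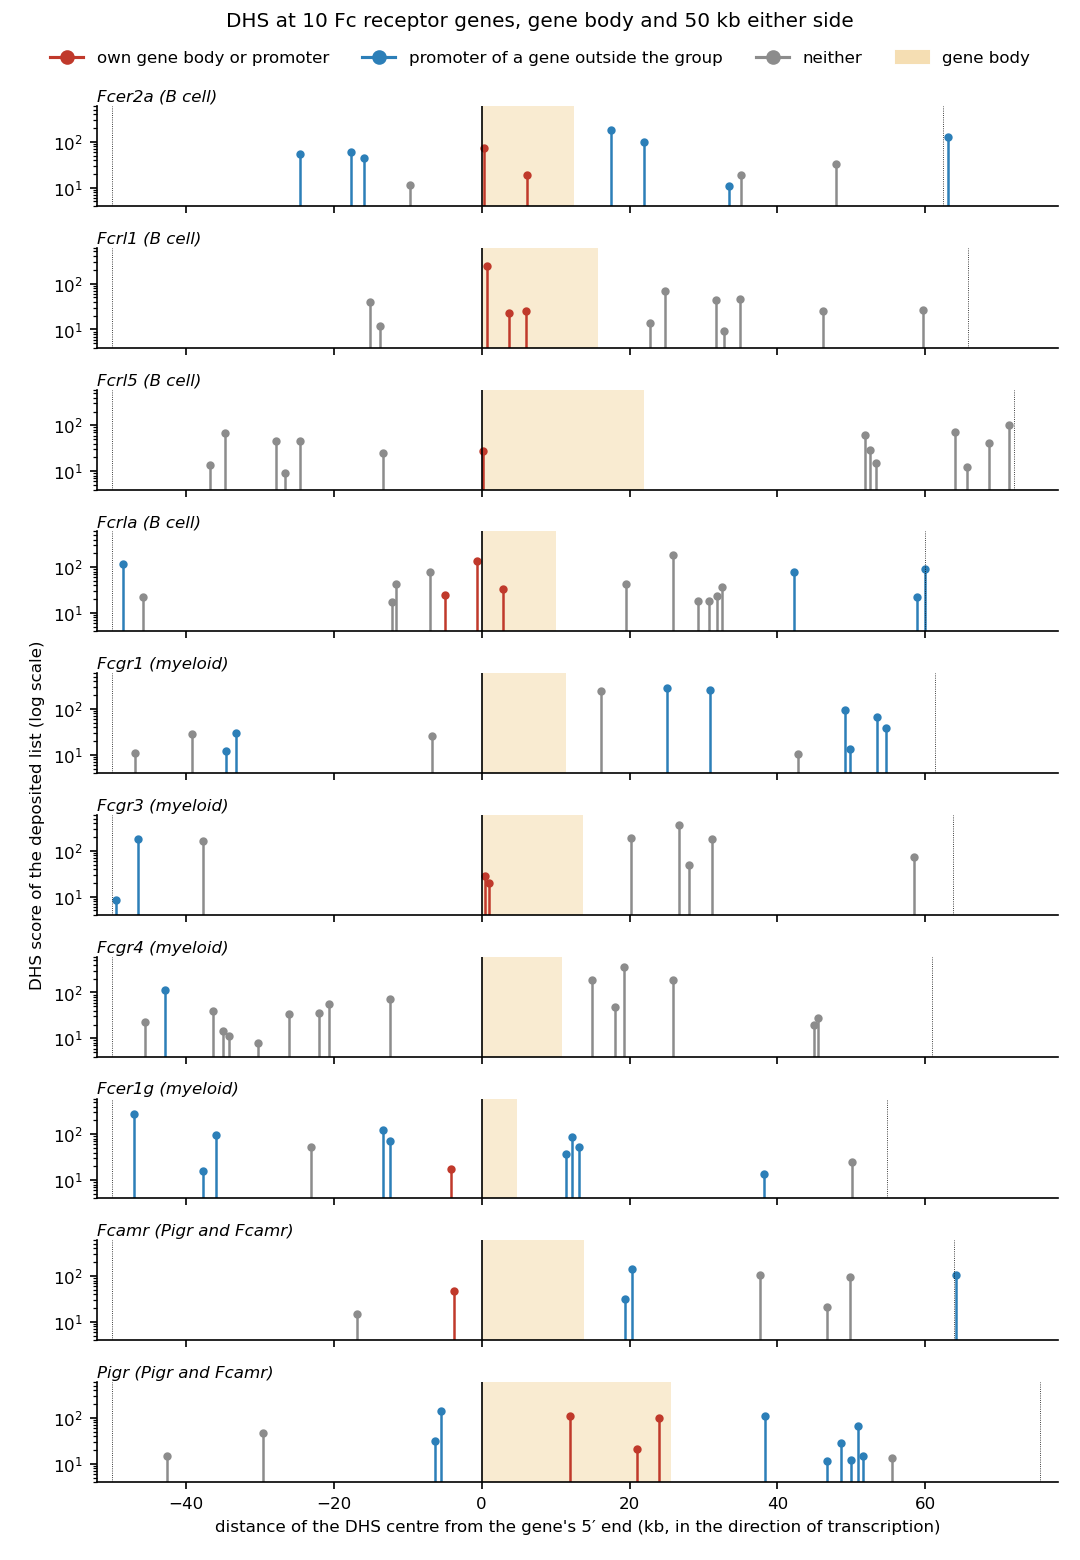
Each panel shows 1 member with its gene body shaded and dotted lines at 50 kb on either side; each DHS stands at the distance of its centre from the gene's 5′ end, in kb in the direction of transcription, and its height is the score on a log scale. Red DHS lie in the gene's own body or promoter, blue ones only in the promoter of a gene outside the group. A red DHS stands at the 5′ end in all 4 B cell panels, the panels of Fcgr1 and Fcgr4 hold none, and the tall DHS of the myeloid panels lie outside the gene bodies.

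Of the myeloid members, Fcgr1 and Fcgr4 had no DHS in the body or the promoter. Fcgr1 encodes the high-affinity receptor for IgG and lies on the minus strand at chr3:96086832-96098179. The nearest DHS to any of its TSSs was 6325 bp away, upstream, with a score of 26.0. Its 13 DHS were all in the flanks, and 8 of them lay in promoters of other genes, of which 6 in those of Hist2 histone genes. The highest in the window, of score 284, overlapped the promoters of Hist2h2bb, Hist2h3b and Hist2h4. The DHS of score 38.6 at chr3:96043265-96043617 is uncertain, since 89.5% of its words recur in the genome.

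Fcgr4, an activating receptor for IgG on monocytes and neutrophils, lies on the plus strand at chr1:172949051-172959892 with a single transcript. The nearest DHS was 11579 bp from its TSS, the largest such distance among the 10 members. Of its 16 DHS, 10 lay upstream with scores from 7.74 to 114 and 6 downstream with scores from 19.4 to 356. The upstream one of score 114 covered the TSS of Fcgr2b, the inhibitory IgG receptor of B cells, and was also in the window of Fcrla. The 1000 bases on each side of the TSS held no 31-base word that recurs in the genome.

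The 250 bases upstream of the TSS of Fcgr4 (chr1:172948801-172949050, plus strand) are shown for comparison with those of Fcrl1, since Fcrl1 and Fcgr4 were the members with the PU.1 word between 250 bases upstream and 50 downstream of the TSS. That was 2 of 10 members, against 3.12% of 22350 promoters of the same length. The capitals mark the word, on the opposite strand as in Fcrl1. One of these promoters lay in a DHS of score 237 and the other lay in none.
Fcgr4 upstream: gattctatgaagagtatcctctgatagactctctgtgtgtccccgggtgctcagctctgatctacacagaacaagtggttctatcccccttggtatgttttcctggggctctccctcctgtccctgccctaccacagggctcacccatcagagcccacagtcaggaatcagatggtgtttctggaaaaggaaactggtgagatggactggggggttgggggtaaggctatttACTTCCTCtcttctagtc

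Fcgr3, an activating receptor for IgG with low affinity, lies on the minus strand at chr1:172981300-172995066. It had 2 low DHS in the body, of score 28.1 at chr1:172994410-172994794 and 19.4 at chr1:172993872-172994206. Both were near a far upstream TSS used by 1 of its 5 transcripts, the nearer at 272 bp. The other 4 transcripts start in the interior, and no DHS lay within 4338 bp of those TSSs. Both DHS are uncertain, because 77.7% and 85.9% of their 31-base words occur more than once in the genome, with a median of 3 copies among the recurring words. In the 1000 bases on each side of that TSS the share was 92.7%.

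The central 300 bases of the DHS of score 28.1 (chr1:172994453-172994752, minus strand) are shown because it was the highest-scoring promoter DHS of a myeloid member. The capitals mark a match to the ETS-IRF composite word GGAANNGAA and one to the C/EBP word TTGCNNAA. The run of short tandem units after the second match can be read by eye. This TSS was also the CpG-rich one among the members' 5′-most TSSs, with a GC content of 68.4%.
Fcgr3 promoter DHS: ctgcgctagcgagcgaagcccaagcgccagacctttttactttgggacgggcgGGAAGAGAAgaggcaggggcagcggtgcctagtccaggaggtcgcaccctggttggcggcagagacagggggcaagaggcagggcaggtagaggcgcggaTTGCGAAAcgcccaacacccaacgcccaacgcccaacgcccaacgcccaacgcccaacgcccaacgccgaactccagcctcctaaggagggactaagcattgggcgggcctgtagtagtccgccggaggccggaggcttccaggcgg

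Fcer1g, the gamma chain shared by the activating receptors, lies on the minus strand at chr1:173159703-173164496. Its body held no DHS. The promoter DHS, of score 17.2 at chr1:173168426-173168770, lay 3930 bp upstream of the nearest TSS. In the flanks 9 of 11 DHS were in promoters of other genes, the highest, of score 275, at Ppox and Usp21. The promoter DHS of Fcgr3 and Fcer1g, with scores of 28.1 and 17.2, both fell below the median of the list, and no myeloid member had a promoter DHS above it.

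The highest-scoring DHS of all 10 windows stood between Fcgr4 and Fcgr3, outside both genes. The 4 DHS between Fcgr4 and Fcgr3 had scores of 184, 48.5, 356 and 189, and the 3 upstream of Fcgr3 had scores of 165, 180 and 8.40. The DHS of scores 180 and 8.40 overlapped the promoter of 1700009P17Rik, and the others overlapped none. The 4 between the genes and the first 2 of the 3 upstream held the word GTTCGANNC on one of the strands, which is the core of the B box, the internal promoter element of transfer RNA (tRNA) genes. The DHS of score 8.40 did not hold it. This word was searched for after sequences of these DHS had been seen, so its presence in them is a description. Of the 19 DHS in the windows of Fcgr3 or Fcgr4, 6 held it within their width. In the central 1000 bases around each DHS, the length used for the whole list, it occurred in 8 of these 19. The 2 added are the DHS in the body of Fcgr3, which are narrower than that and had the word only in the sequence beside them. By the same measure the counts were 10 of the 104 DHS in the members' windows and 5.60% of the 47474 DHS on chromosomes 1 to 19 and X.

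The whole widths of the 6 DHS with the word held 10 such words. Around all 10, the 5 base pairs of the stem that would flank the loop of the B box could form, and so could the 7 pairs of an acceptor stem with the best-paired stretch upstream, G-T pairs included. All of these pairs could form around 1 of the 4 such words in the other DHS of the members' windows and around 129 of the 2937 in DHS outside them (4.39%). The stretches from one end to the other, with 1 unpaired base after the stem, were 71 to 83 bases long, the size of a tRNA gene. GENCODE M1 placed no exon under any of the words, and the annotation used here holds no tRNA genes, so the description rests on the letters alone. One stretch of 90 bases from each DHS is printed with the word, which is what they share, in capitals. They are given in the order of the genome and on the strand that reads the word as written, with positions chr1:172964069-172964158 (minus), chr1:172967156-172967245 (minus), chr1:172968124-172968213 (minus), chr1:172975101-172975190 (plus), chr1:173031965-173032054 (minus) and chr1:173041561-173041650 (plus).
DHS of score 184: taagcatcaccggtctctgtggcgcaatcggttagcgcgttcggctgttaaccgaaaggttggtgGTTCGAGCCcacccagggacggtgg
DHS of score 48.5: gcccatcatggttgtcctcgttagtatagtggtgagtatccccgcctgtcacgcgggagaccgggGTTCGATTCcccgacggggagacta
DHS of score 356: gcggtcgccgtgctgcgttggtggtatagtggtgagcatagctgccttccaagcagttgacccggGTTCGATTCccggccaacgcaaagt
DHS of score 189: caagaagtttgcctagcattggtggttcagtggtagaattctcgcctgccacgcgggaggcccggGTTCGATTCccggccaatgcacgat
DHS of score 165: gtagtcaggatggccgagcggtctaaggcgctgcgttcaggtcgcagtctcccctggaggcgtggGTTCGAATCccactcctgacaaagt
DHS of score 180: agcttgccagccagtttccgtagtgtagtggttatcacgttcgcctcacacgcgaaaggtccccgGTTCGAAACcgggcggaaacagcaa

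Without the 10 DHS that hold the word anywhere in their width, myeloid windows kept 36 DHS and B cell windows 46, and the density ratio was 1.15. Whether any of these DHS act on the receptor genes was not tested. Between the DHS of Fcgr3 and the one of score 165 lay 36895 bp without a DHS, and 59.8% of the 31-base words of that stretch recur in the genome. How reads were treated that match several places is not given in the sources used here for this library, so the lack of DHS there cannot be told apart from a lack of uniquely placed reads.

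**Figure D3:**
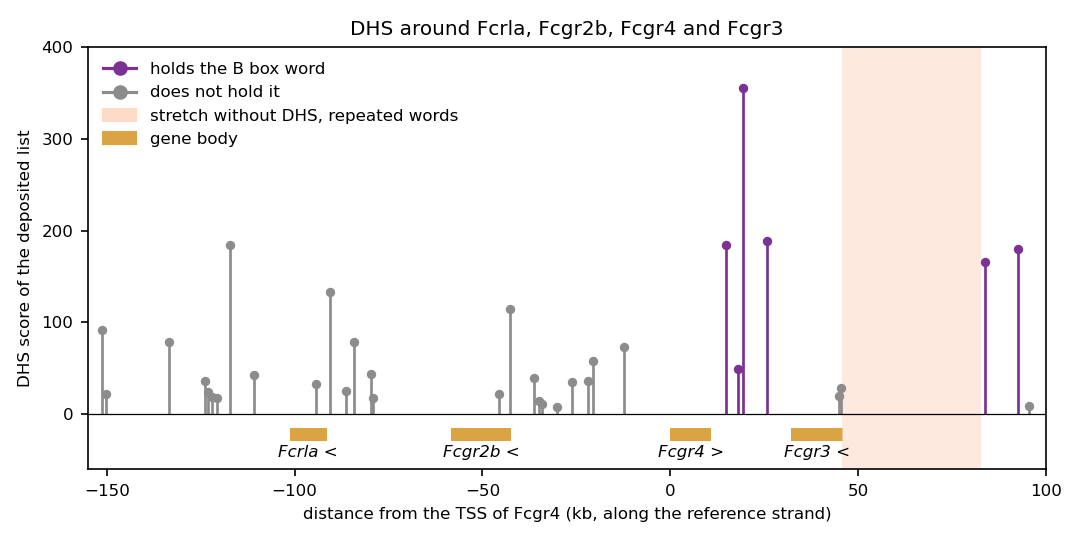
Scores of the DHS in the windows of Fcrla, Fcgr4 and Fcgr3 against distance from the TSS of Fcgr4 in kb; purple DHS hold the B box word, bars under the axis are gene bodies with the direction of transcription, and the shaded stretch of 36895 bp has no DHS and 59.8% recurring words. The 6 purple DHS lie on both sides of Fcgr3 with scores from 48.5 to 356, and the highest of the grey ones, of score 184, lies downstream of Fcrla.

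Pigr, the receptor that carries polymeric IgA and IgM across epithelial cells, had no promoter DHS but 3 DHS in its introns. It lies on the plus strand at chr1:132723261-132748826, and the nearest DHS to a TSS was 5005 bp upstream with a score of 141, just beyond the 5 kb that counted as promoter, so that the lack of a promoter DHS rests on that limit. The intronic DHS had scores of 108 at chr1:132734358-132735983, 21.4 at chr1:132743788-132744665 and 97.5 at chr1:132746577-132748021. The first and the third scored higher than 86.2% and 83.7% of the list. Fcamr, a receptor for IgA and IgM, lies next to it at chr1:132697479-132711317 on the same strand. It had no DHS in the body and 1 in the promoter, of score 46.3 at chr1:132693192-132694275, 3204 bp upstream of the TSS. All 8 DHS in the window of Fcamr were also among the 14 in the window of Pigr.

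Pigr is a receptor of epithelium, whereas Fcamr has been described on several cell types and was kept with Pigr as its neighbour. The pair neighbours Faim3, the older symbol of Fcmr, which encodes the IgM receptor of B cells. Faim3 had a DHS of score 108 over its TSS at 38302 bp from the 5′ end of Pigr, and 6 of the 14 DHS in the window of Pigr lay in the promoter regions of Faim3. The DHS of score 141 upstream of Pigr was the highest of both windows, and it lay in the promoter of Gm15848, a non-coding transcript. Which gene the intronic DHS of Pigr act on was not tested. The central 300 bases of the promoter DHS of Fcamr (chr1:132693584-132693883) and of the intronic DHS of Pigr with score 108 (chr1:132735021-132735320), both on the plus strand, are shown as the highest of their kind. The capitals in the first mark the ETS-IRF composite word, and the second held none of the 5 words.
Fcamr promoter DHS: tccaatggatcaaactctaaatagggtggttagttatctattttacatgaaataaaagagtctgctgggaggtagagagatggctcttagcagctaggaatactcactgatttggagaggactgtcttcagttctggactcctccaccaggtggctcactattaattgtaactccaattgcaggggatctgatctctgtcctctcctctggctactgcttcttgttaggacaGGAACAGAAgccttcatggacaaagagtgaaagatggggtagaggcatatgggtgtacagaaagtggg
Pigr intron DHS: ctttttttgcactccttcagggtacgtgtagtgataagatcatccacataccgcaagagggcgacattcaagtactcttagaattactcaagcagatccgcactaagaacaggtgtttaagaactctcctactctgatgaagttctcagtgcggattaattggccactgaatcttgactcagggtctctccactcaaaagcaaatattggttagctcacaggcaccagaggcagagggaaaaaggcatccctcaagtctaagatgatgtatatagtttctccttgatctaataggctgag

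The 5 words were searched on both strands in the central 300 bases of the 16 DHS that lie in a member's body or promoter. The ETS-IRF composite word GGAANNGAA was in 5 of 16, of which 2 of 9 at B cell members, 2 of 3 at myeloid members and 1 of 4 at Pigr and Fcamr, and in 9.31% of all DHS centres. The octamer was in 1 of 16 against 1.63%, and the C/EBP word in 3 of 16 against 10.6%. The EBF1 word TCCCNNGGG and the PU.1 word were in 0 of 16, against 6.64% and 3.61%. The 2 myeloid matches of the composite word are those in the repeated DHS of Fcgr3. A match is a description of the letters, and the lack of one says nothing of the factor.

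Of 9 other Fc receptor genes, none with a CpG-rich promoter, 3 (33.3%) had a promoter DHS, all of them over a TSS. Of all protein-coding genes without a CpG-rich promoter, 39.2% had a promoter DHS and 29.4% one over a TSS. The 3 were Fcgr2b with a score of 114, Faim3 with 108 and Trim21, a cytosolic antibody receptor, with 63.0. The 6 without one were Fcrlb, Fcrls, Fcrl6, Fcer1a and Ms4a2, the last 2 being chains of the IgE receptor of mast cells, and Fcgrt, the neonatal Fc receptor. All 12 genes that signal below these receptors had a DHS over a TSS, against 46.6% of all protein-coding genes. Their highest promoter scores ran from 52.9 to 281 with a median of 167. The 12 include the kinases Lyn, Syk and Btk, the adaptor Blnk and the phosphatase Inpp5d. Of the 12, 5 have a CpG-rich promoter.

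The label of the cells was set against marker genes. Of all protein-coding genes, 46.6% had a DHS over a TSS and 57.0% a promoter DHS. Among those without a CpG-rich promoter the shares were 29.4% and 39.2%. All 10 B cell markers had a DHS over a TSS, with highest promoter scores from 84.0 to 294. Of the 10 T cell markers 1 had a promoter DHS (Lck), of the 8 epithelial markers 2 (Epcam and Cldn7), and of the 5 NK cell markers 2 (Klrb1c and Prf1). Lck and Cldn7 had DHS over a TSS, with highest scores there of 41.4 and 21.2, while Epcam, Klrb1c and Prf1 had none. Of the 12 myeloid markers, none with a CpG-rich promoter, 6 had a promoter DHS. Their highest promoter scores were 142 at Cd68, 51.05 at Cd14, 42.5 at Elane, 41.05 at Emr1, 18.2 at Itgam and 12.3 at Csf3r, the first 4 of them above the median of the list, and the DHS of Cd14 covered a TSS while the others did not. Csf1r, Lyz2, Mpo, S100a8, S100a9 and Ly6g had no promoter DHS. The 50% of myeloid and 40% of NK cell markers with a promoter DHS lay between the 39.2% and 57.0% given above. The 10% of T cell and 25% of epithelial markers lay below both. Of the 5 markers of plasmacytoid dendritic cells, which also carry B220, 4 had a DHS over a TSS and the defining Siglech had none. The 4 were Bst2, Tcf4, Ly6d and Ccr9, and whether B cells use these genes themselves was not tested. The part of other B220-positive cells in the DHS of the members was not tested.

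**Figure D4:**
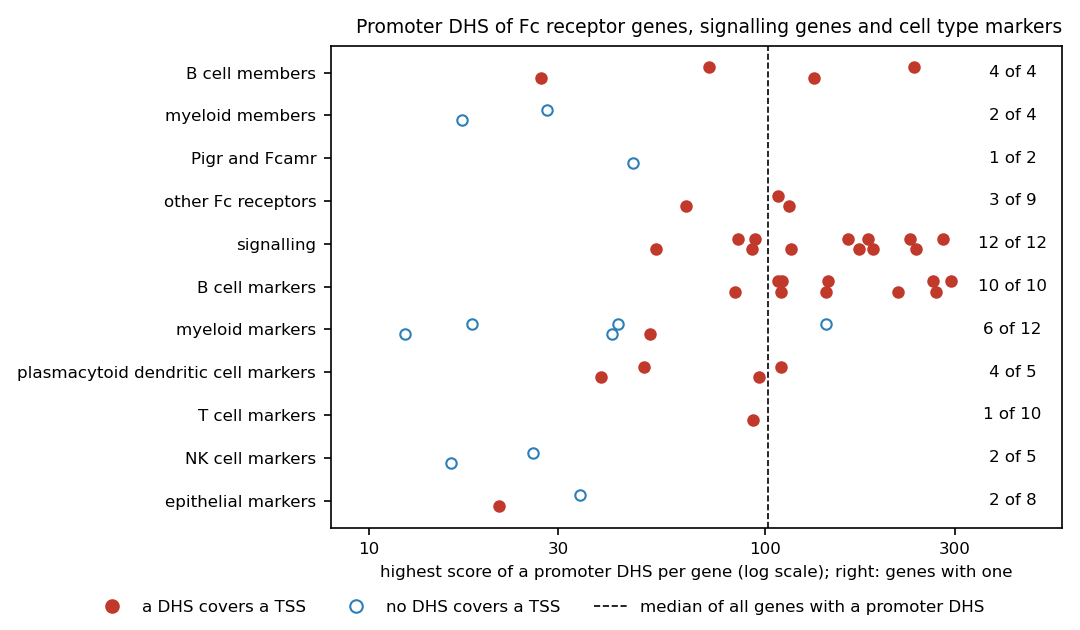
Highest score of a promoter DHS per gene, on a log scale, for the members by class, other Fc receptor genes, signalling genes and cell type markers; filled points have a DHS over a TSS, the dashed line is the median of 101.2 over all genes with a promoter DHS, and the numbers at the right give the genes with a promoter DHS. The B cell members are filled and run from 27.2 to 237, whereas the points of the myeloid members and of Fcamr are open and lie at or below 46.3.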

How the data were processed

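DNase-seq of 1 DNaseI library of splenic B cells was analysed; the input library was not analysed here. The names in the deposited list are those of the peak caller MACS, which the authors ran, and the list gives each peak a position and a score from the caller, whose scale, settings and version are not given for this library in the sources used here. The submitters' processing notes name the mm9 build, BWA 0.6.2 and SAMtools. No reads or counts were used, so the depth is unknown, and the score served only to describe and rank DHS within the list.

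Starts were shifted to count from 1. Gene models were those of GENCODE M1, and sequence came from the NCBI build 37 (mm9) genome; Syk and Fcmr were matched through their older symbols Sykb and Faim3. The members, lists and words were chosen with earlier results of these data known. Their names come from general knowledge, and no measured value entered the rule that picks the members. All 10 members are named; among other Fc receptor and signalling genes, those lacking a promoter DHS are given by name if there are under 6 of them and the remaining genes if not. Further genes of these lists and of the marker lists were named after their values were seen. Intervals are at the 95% level, exact Poisson for densities and exact conditional binomial for their ratio. A promoter was CpG-rich when the 1000 bp around the TSS reached 55% GC and 0.6 times the CpG count its base composition predicts. Words of 31 bases were counted over the whole genome on both strands. The overlap code was tested on simulated intervals. Python 3.11.15, numpy 2.4.6, scipy 1.17.1, pysam 0.24.0 and matplotlib 3.10.9 were used.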

Additional observations from a re-analysis of the deposited data

How the results depend on the processing

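Over 9 counts and ratios and 57 alternatives, 41 stayed within 1.5 times the value given (within its interval for the density ratio) and 16 moved. The density ratio stayed within its interval in all 10 alternatives, with 1.36 when DHS in promoters of genes outside the group were left out. The 4 of 4 B cell members with a promoter DHS became 3 at or above the median score, without Fcrl5, and stayed 4 otherwise. Window counts for B cell members, myeloid members and the pair Pigr and Fcamr were 25, 26 and 6 at or above the median score, 16, 12 and 6 with 10 kb on either side, and 35, 23 and 6 without DHS in promoters of genes outside the group. Myeloid members with a promoter DHS fell to 0 at or above the median score and to 1 within 1 kb of a TSS, where the pair had 0. At or above the median score gene bodies held 3 DHS in B cell and 0 in myeloid members, and merging DHS closer than 500 bp left 1 in myeloid members. Leaving out DHS with more than 50% recurring words, an alternative chosen after seeing the data like the one on the B box, left 1 myeloid member with a promoter DHS and 0 DHS in myeloid gene bodies. No paired analysis was possible because there is 1 library. The unknown depth limits every absence.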
